A study of Mus musculus with 8 samples.

Results

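The genes of extracellular Wnt signalling were compared between mouse bone mesenchymal stem cells (MSCs) grown at low and at high oxygen. The set holds the Wnt ligands, their Frizzled and Lrp or Ror receptors, the secreted Sfrp, Dkk, Wif1, Sost and Notum inhibitors, the R-spondins with their Lgr receptors, and a few intracellular proteins closest to the receptors, all taken by gene symbol. The rule found 63 genes among the 53465 gene identifiers of the count table by symbol alone. The set was chosen with earlier results of these data known, so its shares beside those of all genes are descriptions. Of these 63 genes, 45 had enough counts to be tested, 9 had 0 counts in every sample and the other 9 had between 0 and 9 counts per sample.

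The cells came from the hind-limb bones of wild-type C57BL/6N males aged 3 to 5 months. They grew out of bone fragments in flasks and were sorted as CD45-/Ter-119-/Sca-1+/CD140a+ cells, which per the labels took place on day 12. Culture after the sort was at 2% oxygen for the 4 hypoxia samples and at 21% oxygen for the 4 normoxia samples. Both groups thus share mouse strain, the outgrowth from bone at low oxygen, the sort and the culture medium, and differ in the oxygen level after the sort. The samples carry the numbers 1 to 4 in each group, and the study describes them as biologically independent.

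Wnt proteins are secreted lipid-modified ligands. In the best known branch they bring a Frizzled receptor together with Lrp5 or Lrp6, which stops the Axin-containing destruction complex from degrading beta-catenin, so that beta-catenin reaches TCF/LEF factors in the nucleus. Other branches run through Ror receptors and act on cell shape and calcium. In bone the pathway is known for its part in osteoblast formation, and much of its control is outside the cell. Sfrp, Frzb and Wif1 proteins bind the ligands, and Dkk proteins such as Dkk1 and Dkk2 and sclerostin (Sost) bind the Lrp co-receptors. R-spondins keep Frizzled receptors on the surface by removing the ligases Znrf3 and Rnf43.

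Library sizes and cell markers were examined before the Wnt genes. Total counts were 12898291 to 13433824 in 7 samples and 25132141 in hypoxia replicate 1, which was therefore sequenced more deeply than the rest. At these depths 3 counts correspond to 0.125 to 0.241 CPM, the library-scaled unit used throughout. All 11 stromal markers were detected in every sample, among them Ly6a, the gene of Sca-1, with mean levels of 434 CPM in hypoxia and 393 CPM in normoxia, and Pdgfra, the gene of CD140a, with 175 and 206 CPM. The summed stromal level was 54613 to 62442 CPM in hypoxia and 35054 to 37623 CPM in normoxia, most of it from the collagen gene Col1a1, and 2 of these markers rose and 2 fell. The 9 blood and macrophage markers were all detected although the sort removed CD45+ cells, at a summed 501 to 991 CPM in hypoxia and 608 to 1138 CPM in normoxia, with 1 gene higher (Lyz2) and 1 lower (Cd52). Of 7 erythroid markers found in the table, 5 had 0 counts in every sample and the rest at most 3 counts. Summed levels were 3.72 to 5.78 CPM against 3.54 to 4.23 CPM for endothelial, 534 to 685 against 616 to 811 for osteoblast, 29.6 to 58.9 against 45.4 to 103 for adipocyte, 910 to 1123 against 721 to 926 for chondrocyte, 2.63 to 6.16 against 3.18 to 4.37 for nerve support and 0.848 to 1.38 against 0.446 to 0.678 for muscle markers. The summed osteoblast level was carried by Spp1, which rose, while Sp7 and Alpl fell. Of the chondrocyte markers Col10a1 rose and Col2a1 and Sox9 fell, and of the muscle markers Des fell. No endothelial, adipocyte or nerve support marker passed. The part of these markers in the Wnt results was not tested. In such bulk samples, fewer cells of a type and less RNA per cell cannot be told apart.

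Among the 45 tested genes, 20 differed between the oxygen levels at an adjusted p-value under 0.05 (limma-trend, Benjamini-Hochberg adjustment over all 14369 tested genes). This was 44.4% of the tested set, where 34.6% of all tested genes passed. Of the 20 genes, 8 were higher in normoxia (17.8%, against 18% of all genes) and 12 were lower (26.7%, against 16.5%). Hypoxia and normoxia values had no overlap for 16 members (35.6%, against 32.6% of all genes), 7 of them higher and 9 lower. A change of at least 1 on the log2 scale together with the adjusted p-value was met by 5 members (11.1%, against 2.15% of all genes), namely Nkd2, Wnt9a and Wif1 upwards and Sfrp2 and Frzb downwards. The median log2 change of the tested members was 0.0025, next to 0.0049 for all tested genes.

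With the replicate number as a block, so that each normoxia sample is set against the hypoxia sample of the same number, 28 members passed (62.2%, against 46.0% of all genes). Of the 45 tested members, 10 were higher, close to the 23.3% share of all genes, and 18 were lower (against 22.7%). For the fits other than the main one and this one, calls over all tested genes were not split by direction. With the block and a correction for GC content and transcript length, 28 passed as well (against 43.2% of all genes), 12 higher and 16 lower. Without the deeply sequenced hypoxia replicate 1, and with no block, 9 members were higher and 14 lower, with 5423 calls over all tested genes. The count of higher members was the less stable side. It was 5 without hypoxia replicate 3, hypoxia replicate 4 or normoxia replicate 2, and 4 without normoxia replicate 3. Calls over all tested genes were also fewer in these fits, at 3838, 4004, 4154 and 4049 against 4970 with all samples.

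**Figure D1:**
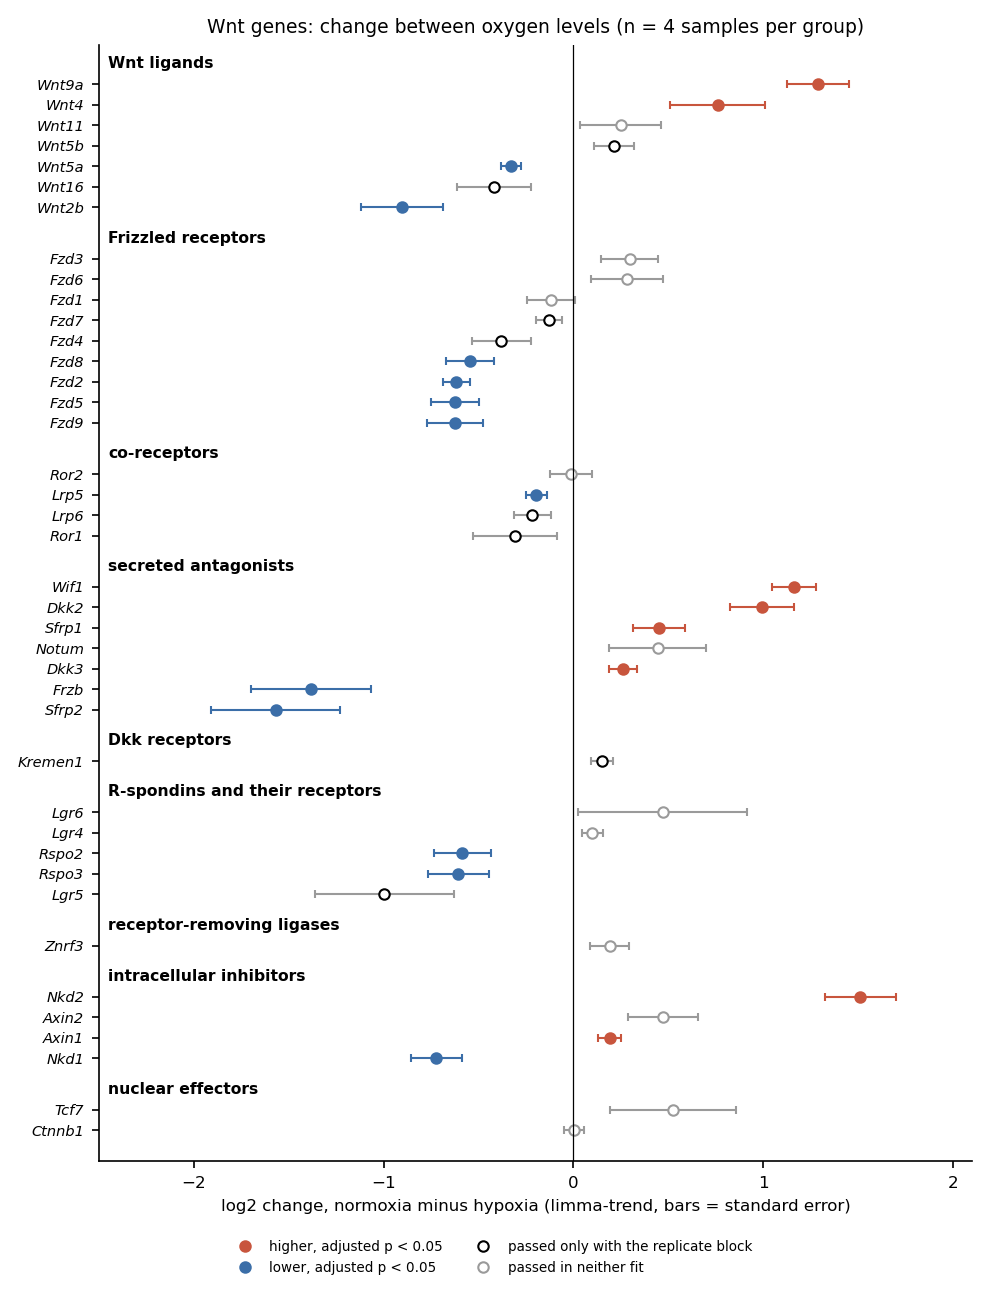
Log2 change (normoxia minus hypoxia, horizontal axis) of the 40 members with a mean of at least 20 counts, grouped by role, with the standard error as bars and 4 samples per group. Filled red points rose and filled blue points fell at an adjusted p-value under 0.05, black rings passed only with the replicate block and grey rings passed in neither fit. No Frizzled receptor, co-receptor or R-spondin gene has a red point, and the widest spread, from -1.57 for Sfrp2 to 1.16 for Wif1, is among the secreted antagonists of which 6 of 8 tested passed.

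The largest rise and the largest fall of the set belonged to Nkd2, an intracellular inhibitor, and Sfrp2, a secreted one. Nkd2 had the 25th largest rise and Sfrp2 the 28th largest fall of all tested genes. Their promoter windows are shown because these genes carry the extremes of the comparison. Each runs from 250 bases before to 50 bases after the RefSeq transcription start and is 300 bases long (GRCm38.p6, RefSeq). The Nkd2 window is chr13:73847582-73847881 on the minus strand and that of Sfrp2 is chr3:83766071-83766370 on the plus strand. Capitals mark matches to GCGTG on either strand, a core of the sites bound by hypoxia-inducible factors.

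Nkd2: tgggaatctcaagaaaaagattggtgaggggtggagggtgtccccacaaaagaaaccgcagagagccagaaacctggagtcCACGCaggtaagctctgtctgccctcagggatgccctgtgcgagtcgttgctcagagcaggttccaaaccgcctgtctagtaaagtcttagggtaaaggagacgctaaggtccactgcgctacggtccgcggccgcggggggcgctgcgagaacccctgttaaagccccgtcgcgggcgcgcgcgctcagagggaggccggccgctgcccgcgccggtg

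Sfrp2: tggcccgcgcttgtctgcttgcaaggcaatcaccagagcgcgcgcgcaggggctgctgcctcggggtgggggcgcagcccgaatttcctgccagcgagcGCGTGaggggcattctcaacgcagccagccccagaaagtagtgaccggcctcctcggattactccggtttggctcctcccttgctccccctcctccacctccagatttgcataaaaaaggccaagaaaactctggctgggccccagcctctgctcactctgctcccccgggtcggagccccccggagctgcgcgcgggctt

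Nkd2's window holds a single GCGTG match, on the opposite strand at bases 82 to 86, and that of Sfrp2 holds a single match on the shown strand at bases 100 to 104. Neither window contains ACGTG, the other core, or CTTTGA, a core of TCF/LEF sites. The GC content is 63.0% for Nkd2 with 26 CpG dinucleotides and 66.0% for Sfrp2 with 22. RefSeq windows were at hand for 42 of the 63 members, 51 windows in all. GCGTG was present in 24 of these 51 windows (47.1%) and in 32.4% of all 32817 windows of this length. ACGTG was present in 8 member windows (15.7%, against 19.6%) and CTTTGA in 7 (13.7%, against 16.0%). A GCGTG match was found in 4 of 5 windows of members that rose and 4 of 6 of members that fell. It was found in 9 of 21 windows of tested members that did not pass and 7 of 19 of untested members. Some members had several windows, such as Wnt5b with 3, and the windows compared were not matched for GC content. A match is a description of letters and not of a bound site.

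The secreted antagonists moved in both directions. Of 12 members 8 were tested, 4 rose (50%, against 18% of all tested genes) and 2 fell (25%, against 16.5%) in normoxia. Sfrp2 and Frzb, both secreted Frizzled-related proteins that bind Wnt ligands, fell. Wif1, Dkk2, Sfrp1 and Dkk3 rose.

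Sfrp2 (ENSMUSG00000027996, chr3:83766321-83774316, GRCm38) stood at 344, 1078, 1002 and 827 CPM in hypoxia replicates 1 to 4. In normoxia it stood at 139, 343, 310 and 270 CPM. The groups had no overlap by a narrow margin, with hypoxia replicate 1 at the level of normoxia replicate 2, and replicate 1 was the lowest sample of each group. Sfrp2 was 2.96-fold lower in normoxia (log2 change -1.57 ± 0.34 SE, n = 4 per group, adjusted p = 0.00402) and lower in 4 of 4 same-numbered pairs. The differences within pairs were -1.31, -1.65, -1.69 and -1.62, so the pairs differed less from each other than the samples of a group did. Without hypoxia replicate 1 the log2 change was -1.94 (adjusted p = 7.28e-05).

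Frzb (also Sfrp3, chr2:80411970-80447625) was far less abundant per length, with 5.22, 20.3, 11.8 and 9.01 CPM in hypoxia and 3.04, 4.25, 4.84 and 3.47 CPM in normoxia. Every hypoxia sample was above every normoxia sample, and hypoxia replicate 2 was the highest. Its log2 change was -1.38 ± 0.32 SE (2.6-fold lower, adjusted p = 0.00543), and -1.69 without hypoxia replicate 1 (adjusted p = 0.000212).

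Sfrp1, a Wnt-binding protein of the same subfamily as Sfrp2, went the other way. It measured 336, 401, 432 and 356 CPM in hypoxia and 384, 568, 663 and 502 CPM in normoxia. Normoxia replicate 1 lay inside the hypoxia range, yet the normoxia sample was the higher in 4 of 4 pairs. The change was 0.45 ± 0.14 SE (1.37-fold, adjusted p = 0.0247), a call that was lost without hypoxia replicate 4 (adjusted p = 0.0679), normoxia replicate 2 (0.0712) or normoxia replicate 3 (0.0753).

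Wif1 (Wnt inhibitory factor, chr10:121033960-121100650) had the smallest adjusted p-value of the set. Its hypoxia levels were 9.49, 9.39, 7.81 and 7.40 CPM and its normoxia levels 21.0, 16.9, 19.4 and 19.8 CPM. The groups were well apart and Wif1 was 2.24-fold higher in normoxia (log2 change 1.16 ± 0.11 SE, adjusted p = 6.18e-05).

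Dkk2, an Lrp5 and Lrp6 binding antagonist (chr3:132085292-132180304), showed 6.77, 6.10, 5.78 and 4.39 CPM in hypoxia against 13.2, 14.3, 10.4 and 9.04 CPM in normoxia. No values overlapped, and the level was 1.99-fold higher in normoxia (log2 change 0.99 ± 0.17 SE, adjusted p = 0.00100). Dkk3, a divergent Dkk member placed here by its family, was the most abundant gene of the antagonist group per length in normoxia. It had 622, 708, 649 and 722 CPM in hypoxia and 716, 834, 825 and 864 CPM in normoxia. Normoxia replicate 1 lay among the hypoxia samples, and the rise was small (log2 change 0.26 ± 0.075 SE, 1.20-fold, adjusted p = 0.0178). Its call was lost without hypoxia replicate 3 (adjusted p = 0.0550) and without normoxia replicate 2, 3 or 4 (0.0619, 0.0579 and 0.0701).

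The remaining antagonists were at low levels. Notum, which inactivates Wnt proteins by removing their lipid, had a log2 change of 0.44 ± 0.26 SE on 23 to 67 counts (adjusted p = 0.203, and 0.00931 with the block and GC correction), and Sfrp4 had only 10 to 28 counts per sample. Dkk1 had a single count in the whole data set. Sfrp5, Dkk4 and Sost, the osteocyte product sclerostin, had 0 counts in all samples and were not detectable at this depth.

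Because levels of different genes can be compared only per length, CPM was divided by transcript length in kilobases to ask what made up the pool of antagonist transcripts. On this scale the 12 antagonists summed to 443 to 854 in hypoxia and 386 to 566 in normoxia, so the groups overlapped. The make-up differed more. The share of Sfrp2 was 38.8, 63.0, 62.4 and 57.5% in hypoxia replicates 1 to 4 and 17.95, 30.4, 27.3 and 25.9% in normoxia. Dkk3 went from a mean of 30.1% to 48.0%, with ranges of 24.1 to 41.8% and 43.4 to 55.3%. Sfrp1 went from 12.9% to 23.7%, with ranges of 10.7 to 17.4% and 22.1 to 26.8%. These shares follow from the gene levels already given and add no test.

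The ratio of Sfrp2 to Sfrp1 per length was 2.24 to 5.86 in hypoxia and 0.788 to 1.3 in normoxia, and hypoxia replicate 1 had the lowest ratio of its group. In hypoxia Sfrp2 thus exceeded Sfrp1 in all 4 samples, whereas in normoxia their levels were alike to within about 1.3-fold. This ratio and the others below were chosen after the values were seen and are given without a test.

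**Figure D2:**
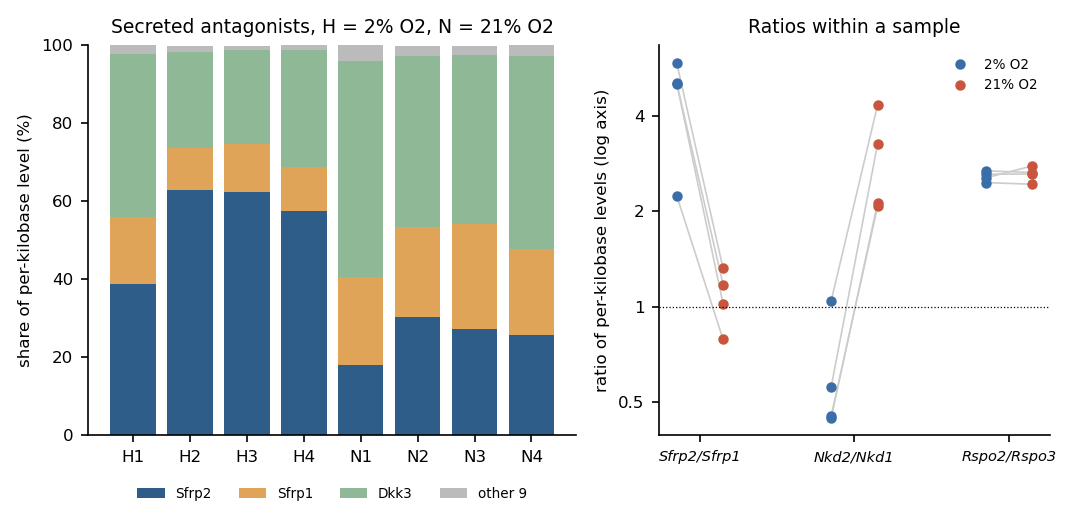
Left, share (%) of each antagonist in the summed per-kilobase level of the 12 secreted antagonists in each sample, where H1 to H4 are hypoxia and N1 to N4 normoxia replicates. Right, ratios of per-kilobase levels on a log axis with grey lines joining samples of the same number. The Sfrp2 share is 38.8 to 63.0% in hypoxia and 17.95 to 30.4% in normoxia, the Sfrp2 to Sfrp1 and Nkd2 to Nkd1 ratios separate the groups in opposite directions, and the Rspo2 to Rspo3 ratios of the groups lie on top of each other.

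Kremen1, a surface receptor that takes up Lrp co-receptors together with Dkk proteins, was measured at 92.2, 85.4, 89.1 and 84.8 CPM in hypoxia and 95.3, 101, 102 and 92.5 CPM in normoxia. Its values did not overlap, but the difference was small (log2 change 0.15 ± 0.058 SE, adjusted p = 0.0591 and 0.0271 with the replicate block). With no block it passed with library totals in place of TMM factors (adjusted p = 0.00575) and without hypoxia replicate 1 (0.0384). In 14 of 19 alternative analyses it did not pass. Kremen2 had 0 counts.

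Among the 4 intracellular inhibitors 2 rose (50%, against 18% of all tested genes) and 1 fell (25%, against 16.5%), and the paralogs Nkd1 and Nkd2 moved apart. Both encode Naked cuticle proteins, which bind Dishevelled, the protein that relays the signal from Frizzled. Nkd2 (ENSMUSG00000021567, chr13:73818534-73847631) had 18.8, 12.1, 11.5 and 10.7 CPM in hypoxia and 47.4, 32.6, 44.0 and 28.4 CPM in normoxia. The lowest normoxia sample was above the highest hypoxia sample, and Nkd2 was 2.85-fold higher in normoxia (log2 change 1.51 ± 0.19 SE, adjusted p = 0.000178). Nkd1 had 18.3, 27.6, 20.8 and 24.0 CPM in hypoxia and 11.1, 15.6, 13.7 and 13.9 CPM in normoxia, again with no overlap. It was 1.65-fold lower in normoxia (log2 change -0.72 ± 0.14 SE, adjusted p = 0.00174). The Nkd2 to Nkd1 ratio per length was 0.446 to 1.04 in hypoxia and 2.07 to 4.32 in normoxia. In both groups the sample numbered 1 had the highest ratio.

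Axin1, the scaffold of the destruction complex and the most abundant of these genes per length, rose slightly from 47.1, 42.9, 44.8 and 44.8 CPM to 48.8, 53.9, 51.0 and 51.5 CPM. The change of 0.19 ± 0.061 SE (adjusted p = 0.0295) did not overlap between groups but was lost in 8 of 19 alternative analyses, with adjusted p-values up to 0.115. Axin2, widely used as a readout of beta-catenin activity, was scarce with 16 to 32 counts per sample. It had 1.34, 1.60, 1.72 and 1.23 CPM in hypoxia and 2.15, 2.23, 1.88 and 2.19 CPM in normoxia. The values did not overlap, and the difference missed the threshold (log2 change 0.47 ± 0.18 SE, adjusted p = 0.0650, 0.0681 with the block, and 0.0325 with the block and GC correction). The adjusted p was 0.0336 with library totals in place of TMM factors, 0.164 in DESeq2 and 0.207 without the filter on low counts. When a sample was left out it was 0.0656 to 0.153.

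**Figure D3:**
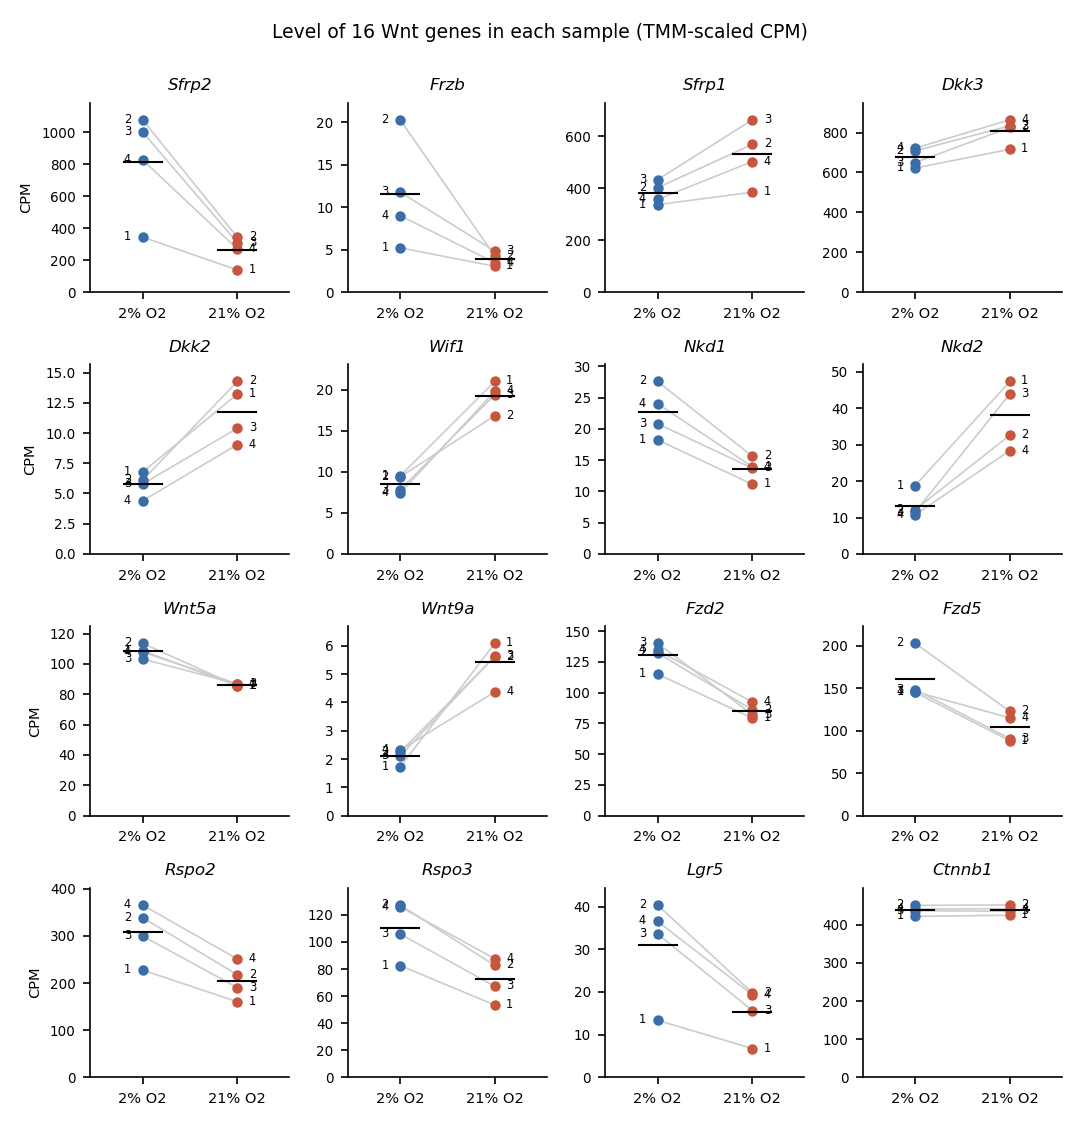
Level (CPM scaled by TMM factors, each axis from 0) of 16 Wnt genes in the 4 hypoxia samples (2% O2, blue) and the 4 normoxia samples (21% O2, red), with replicate numbers beside the points, grey lines joining the same number and black bars at the group means. Sfrp2, Frzb, Rspo2, Rspo3 and Lgr5 are lowest in replicate 1 of each group while their lines fall in all 4 pairs, and Ctnnb1 is level at 422 to 452 CPM.

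Of the 19 Wnt ligands, 10 were tested, 2 rose and 2 fell. These shares of 20% each were close to the 18% and 16.5% of all tested genes. Wnt5a, the main ligand of the beta-catenin-independent branches, was the most abundant ligand per length with a mean share of 54.7% of ligand transcripts in hypoxia and 46.3% in normoxia. Wnt5a (ENSMUSG00000021994, chr14:28504750-28527448) had 109, 114, 103 and 108 CPM in hypoxia and 85.5, 85.5, 86.8 and 86.9 CPM in normoxia. The spread within each group was small and the groups were apart, so that a 1.26-fold difference passed (log2 change -0.33 ± 0.052 SE, adjusted p = 0.000685).

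Wnt9a, a ligand known from joint formation (chr11:59306928-59333552), rose by contrast from 1.71, 2.25, 2.11 and 2.31 CPM to 6.09, 5.62, 5.63 and 4.37 CPM. It was 2.44-fold higher in normoxia with no overlap, although on only 27 to 82 counts per sample (log2 change 1.29 ± 0.16 SE, adjusted p = 0.000199). Per length, Wnt5a exceeded Wnt9a 22.1- to 30.0-fold in hypoxia and 6.65- to 9.42-fold in normoxia. Wnt2b, a ligand of the beta-catenin branch, had 2.72, 2.09, 1.72 and 1.70 CPM in hypoxia and 0.817, 0.936, 1.01 and 1.21 CPM in normoxia. Its groups did not overlap either (11 to 65 counts, log2 change -0.90 ± 0.22 SE, 1.87-fold lower, adjusted p = 0.00690).

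Wnt4, which acts in several branches, had 1.25, 1.68, 1.17 and 0.925 CPM in hypoxia and 2.75, 1.66, 3.10 and 1.73 CPM in normoxia. Pair 2 differed little (1.68 against 1.66 CPM), and the call rested on few counts (log2 change 0.76 ± 0.25 SE, adjusted p = 0.0328). It was lost without the filter on low counts (adjusted p = 0.0861) and without hypoxia replicate 3 or 4 or normoxia replicate 1 or 3 (adjusted p of 0.0737, 0.0925, 0.0917 and 0.106).

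Wnt16, known for its part in cortical bone, had 9.28, 10.3, 7.88 and 6.78 CPM in hypoxia and 4.68, 7.78, 8.16 and 5.20 CPM in normoxia. The groups overlapped and pair 3 did not go down, and it passed only with the block (log2 change -0.42 ± 0.19 SE, adjusted p = 0.115, and 0.0172 with the block). Wnt5b, the paralog of Wnt5a, had 18.6, 14.5, 15.5 and 16.2 CPM in hypoxia and 21.7, 16.9, 19.3 and 17.4 CPM in normoxia. It was higher in 4 of 4 pairs and passed with the block (log2 change 0.21 ± 0.11 SE, adjusted p = 0.144 without and 0.0461 with it). With no block it also passed when library totals replaced the TMM factors (adjusted p = 0.0409). Wnt5b shares its locus with Fbxl14 on the opposite strand, and with a library kit that does not mark strand their reads cannot be told apart where they overlap.

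Wnt11 had a log2 change of 0.25 ± 0.21 SE (adjusted p = 0.400). Wnt2, Wnt10a and Wnt10b had 4 to 33 counts per sample and did not pass. Of the remaining ligands, Wnt6 had 34 counts in all 8 samples together, Wnt7b had 9, Wnt3 had 3, and Wnt8a and Wnt9b had 1 each. No count was seen for Wnt1, Wnt3a, Wnt7a or Wnt8b. The classical beta-catenin ligands Wnt1 and Wnt3a were thus not detectable at this depth, which allows up to 0.125 CPM in the deepest and 0.241 CPM in the shallowest sample on this scale.

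The Frizzled receptors, which bind Wnt ligands at the cell surface, showed 4 falls and no rise among 9 tested genes. Of all tested genes 16.5% fell, so that 4 of 9 (44.4%) is a description of a small group. All 4 falls were kept in each of 19 alternative analyses. Fzd2 (chr11:102604396-102608058) had 115, 132, 140 and 134 CPM in hypoxia and 79.3, 85.9, 82.1 and 92.3 CPM in normoxia. With no overlap and little spread it was 1.53-fold lower in normoxia (log2 change -0.62 ± 0.073 SE, adjusted p = 0.000134). Fzd5 had 145, 203, 149 and 146 CPM in hypoxia and 88.2, 123, 90.7 and 115 CPM in normoxia. Replicate 2 was the highest of both groups, no values overlapped, and Fzd5 was 1.54-fold lower (log2 change -0.62 ± 0.13 SE, adjusted p = 0.00277).

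Fzd9, a receptor known from osteoblasts, had 6.81, 8.50, 7.96 and 10.6 CPM in hypoxia and 4.75, 5.47, 6.13 and 5.12 CPM in normoxia. It was 1.54-fold lower with no overlap (log2 change -0.62 ± 0.15 SE, adjusted p = 0.00666). Fzd8 had 132, 191, 178 and 175 CPM in hypoxia and 91.4, 125, 114 and 133 CPM in normoxia. Hypoxia replicate 1 lay just inside the normoxia range, and the change was -0.55 ± 0.13 SE (adjusted p = 0.00565).

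Fzd1 was the most abundant Frizzled gene per length and did not pass in either fit. It had 202, 322, 230 and 241 CPM in hypoxia and 212, 271, 216 and 209 CPM in normoxia, with a log2 change of -0.12 ± 0.13 SE (adjusted p = 0.510). In limma-trend with all samples, Fzd4 and Fzd7 passed with the block and not without it. Fzd4 had 20.4, 30.1, 29.1 and 31.2 CPM in hypoxia and 15.7, 22.5, 22.3 and 24.5 CPM in normoxia, and the pairs differed by nearly the same amount each (-0.37, -0.42, -0.38 and -0.35 on the log2 scale). Its adjusted p was 0.0757 without and 0.000225 with the block. With no block it was 0.0478 in DESeq2, and 0.00711 in limma-trend without hypoxia replicate 1.

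For Fzd7 the levels were 113, 129, 127 and 126 CPM in hypoxia and 103, 125, 114 and 111 CPM in normoxia, a change of -0.13 ± 0.070 SE that passed narrowly with the block (adjusted p = 0.176 without and 0.0465 with it) and did not pass once GC content and length were corrected as well (0.343). Fzd3 and Fzd6, receptors tied to planar polarity, had log2 changes of 0.30 ± 0.15 and 0.28 ± 0.19 SE and did not pass (adjusted p = 0.144 and 0.274). Fzd10 had 17 counts in all samples together. Per length, the 10 Frizzled genes summed to 155 to 212 in hypoxia and 130 to 162 in normoxia, with an overlap between the groups.

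The co-receptors showed smaller differences, and 1 of 4 fell (25%, against 16.5% of all genes). Lrp6, the more abundant Lrp co-receptor per length, had 413, 545, 406 and 409 CPM in hypoxia and 352, 408, 349 and 410 CPM in normoxia. Pair 4 differed little, and the gene passed only with the block (log2 change -0.22 ± 0.098 SE, adjusted p = 0.108 without and 0.00270 with it). Lrp5 had 113, 113, 114 and 104 CPM in hypoxia and 96.7, 102, 95.1 and 93.6 CPM in normoxia. These groups did not overlap (log2 change -0.19 ± 0.056 SE, adjusted p = 0.0186). Its call was lost with library totals in place of TMM factors (adjusted p = 0.147), with the block and GC correction together (0.242) and without hypoxia replicate 3 (0.0550).

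Ror1 and Ror2 encode receptor kinases for Wnt5a. Ror1 had 21.8, 38.4, 26.2 and 35.3 CPM in hypoxia and 15.1, 31.5, 23.4 and 29.7 CPM in normoxia, so the replicates varied more than the oxygen levels did, while all 4 pairs went down. It passed only with the block (log2 change -0.31 ± 0.22 SE, adjusted p = 0.317 without and 0.00231 with it). Ror2 had a log2 change of -0.01 ± 0.11 SE, with values of 18.5 to 26.1 CPM over all samples and a direction that changed sign with other scalings.

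Rspo2 and Rspo3 fell in normoxia, 2 of 6 tested R-spondin and receptor genes (33.3%, against 16.5% of all genes), and none of the 6 rose. Both are secreted proteins that amplify Wnt signals, and Rspo2 was the most abundant gene of its group per length. Rspo2 (chr15:43020794-43170826) had 228, 339, 300 and 366 CPM in hypoxia and 161, 218, 191 and 251 CPM in normoxia. Rspo3 (chr10:29452416-29535867) had 82.6, 127, 106 and 126 CPM in hypoxia and 53.4, 82.6, 67.2 and 87.6 CPM in normoxia. For both genes hypoxia replicate 1 lay within the normoxia range while all 4 pairs went down.

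Rspo2 was 1.50-fold lower in normoxia (log2 change -0.58 ± 0.15 SE, adjusted p = 0.0101) and Rspo3 1.52-fold lower (log2 change -0.61 ± 0.16 SE, adjusted p = 0.0117). Without hypoxia replicate 1 the log2 changes were -0.72 (adjusted p = 0.000654) and -0.74 (adjusted p = 0.00131). The ratio of Rspo2 to Rspo3 per length was 2.46 to 2.68 in hypoxia and 2.43 to 2.78 in normoxia, so the relative levels of these genes were alike in all 8 samples. Rspo1 had 5 to 33 counts per sample and did not pass, and Rspo4 had none.

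Lgr5, an R-spondin receptor that marks stem cells of several epithelia, had 13.4, 40.4, 33.6 and 36.5 CPM in hypoxia and 6.76, 19.8, 15.7 and 19.4 CPM in normoxia. Replicate 1 was far below the other samples of each group, and within every pair the normoxia level was lower by a similar amount (-0.96, -1.02, -1.09 and -0.91 on the log2 scale). Without the block Lgr5 missed the threshold (log2 change -0.995 ± 0.37 SE, adjusted p = 0.0521), and with the block it passed (adjusted p = 9.81e-10). Without hypoxia replicate 1 it passed with no block (log2 change -1.35, adjusted p = 0.00238). Also with no block, it passed narrowly in edgeR's quasi-likelihood test (adjusted p = 0.0418) and with RLE factors (0.0496). The same held without normoxia replicate 2 (0.0449) or 4 (0.0491), but not in DESeq2 (0.0751) or limma-voom (0.110).

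The related receptor Lgr4 was more abundant per length and had a log2 change of 0.10 ± 0.057 SE (adjusted p = 0.196, and 0.0206 with library totals in place of TMM factors). Lgr6 had a log2 change of 0.47 ± 0.45 SE (adjusted p = 0.449). Znrf3, the ligase that removes Frizzled receptors from the membrane, had 9.95 to 11.1 CPM in hypoxia and 11.0 to 13.3 CPM in normoxia, with a log2 change of 0.19 ± 0.10 SE (adjusted p = 0.164). Its relative Rnf43 had 13 counts in all.

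Ctnnb1, the gene of beta-catenin, differed little between the oxygen levels. It had 422, 451, 437 and 441 CPM in hypoxia and 425, 452, 435 and 442 CPM in normoxia, and a log2 change of 0.0025 ± 0.051 SE (adjusted p = 0.976). This concerns its transcript and not the protein, whose level is set largely by degradation. The TCF/LEF factor genes of the set were scarce. Tcf7 had 7 to 36 counts per sample (log2 change 0.52 ± 0.33 SE, adjusted p = 0.250), and Lef1 had 6 counts over all samples.

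A wider list of 144 other pathway genes, also chosen with earlier results of these data known, was read from the same fit. Of 138 tested, 36 were higher and 32 lower in normoxia, together 49.3% (background 34.6%), with a median log2 change of -0.03. Sox9 of this list is also a chondrocyte marker and Cd44 a stromal one. Among 7 genes of ligand secretion, 3 rose (42.9%, against 18% of all genes) and 2 fell (28.6%, against 16.5%). Porcn, the enzyme that attaches the lipid to Wnt proteins, had 15.5, 19.9, 20.9 and 22.2 CPM in hypoxia and 8.91, 13.1, 11.3 and 12.3 CPM in normoxia. Its groups did not overlap (log2 change -0.78 ± 0.14 SE, adjusted p = 0.00138). Tmed5, a cargo receptor of the secretory pathway, went the other way, with 39.6, 34.3, 30.5 and 30.7 CPM in hypoxia and 68.7, 66.6, 58.7 and 62.6 CPM in normoxia (log2 change 0.93 ± 0.089 SE, adjusted p = 6.03e-05). Wls, which carries Wnt proteins to the surface, had a log2 change of -0.15 ± 0.060 SE and passed only with the block (adjusted p = 0.0690 without and 0.0106 with it). Wls was named after its values were seen.

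Of 20 tested extracellular modulators and further receptors, 5 rose and 5 fell (25% each, against 18% and 16.5% of all genes). Adgra2, a receptor that works with Reck in the response to some Wnt ligands, fell (log2 change -0.86 ± 0.079 SE, adjusted p = 5.44e-05) with no overlap between 49.3 to 56.3 CPM in hypoxia and 25.1 to 30.5 CPM in normoxia. Pi15, encoding a secreted peptidase inhibitor, had overlapping values (2.38 to 16.7 CPM) and a change of -1.12 ± 0.34 SE (adjusted p = 0.0229), a call that did not hold in limma-voom (0.0700) or without hypoxia replicate 2, 3 or 4 or normoxia replicate 1. Of 27 cytosolic relay and destruction complex genes, 5 rose (18.5%, close to the 18% of all genes) and 3 fell (11.1%, below the 16.5% of all genes).

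Of 25 nuclear partners 3 rose (12%, against 18% of all genes) and 11 fell (44.0%, against 16.5%). The falls included the TCF/LEF factor genes Tcf7l1 and Tcf7l2, which were named after their values were seen. Tcf7l1 had 40.4, 48.1, 49.5 and 46.7 CPM in hypoxia and 28.1, 28.2, 30.1 and 30.8 CPM in normoxia (log2 change -0.65 ± 0.077 SE, adjusted p = 0.000142). Tcf7l2 had 38.5, 45.7, 44.1 and 43.2 CPM in hypoxia and 29.6, 29.5, 28.0 and 29.2 CPM in normoxia (log2 change -0.55 ± 0.071 SE, adjusted p = 0.000202). For neither gene did the groups overlap.

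Of 31 planar polarity and calcium branch genes, 10 rose (32.3%, against 18% of all genes) and 6 fell (19.4%, near the 16.5% of all genes). Rock2, a kinase of the cytoskeleton, rose (log2 change 0.88 ± 0.14 SE, adjusted p = 0.000706). Nfatc2, a calcium-responsive transcription factor, had 4.31 to 12.5 CPM in hypoxia and 2.38 to 5.70 CPM in normoxia (log2 change -0.94 ± 0.31 SE, adjusted p = 0.0334), a call that was lost in 7 of 19 alternatives, with adjusted p-values up to 0.102.

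Of 28 genes commonly listed as targets of the beta-catenin branch, 10 rose (35.7%, against 18% of all genes) and 5 fell (17.9%, near the 16.5% of all genes). The largest rises were those of Gja1, a gap junction gene (log2 change 0.92 ± 0.15 SE, adjusted p = 0.000763), and Tnfrsf11b, the gene of osteoprotegerin (log2 change 0.85 ± 0.23 SE, adjusted p = 0.0148, and 0.0610 in DESeq2). Gja1 had 221 to 330 CPM in hypoxia and 406 to 646 CPM in normoxia, and Tnfrsf11b had 93.0 to 245 and 197 to 321 CPM. Many of these genes answer to other signals as well, and the list's counts say nothing of which signal moved them.

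**Figure D4:**
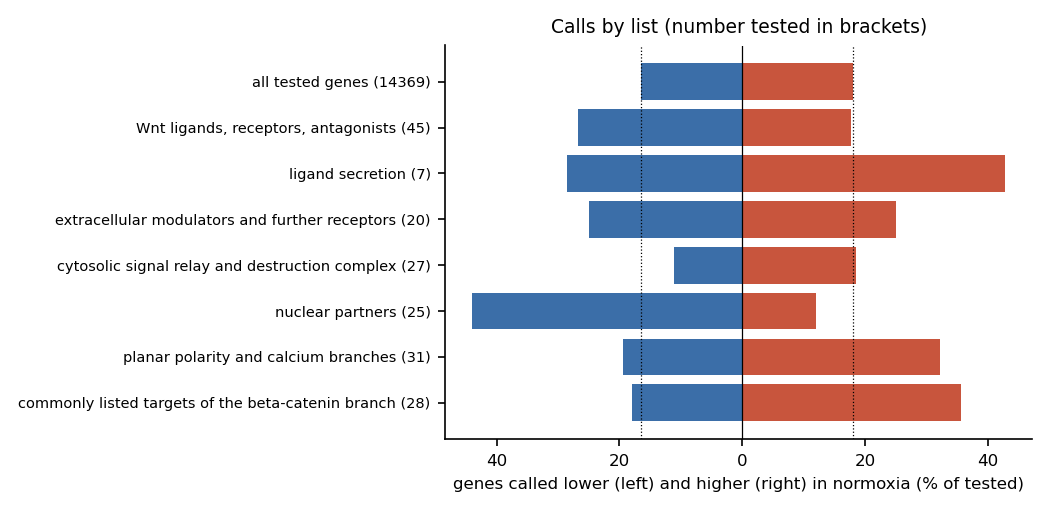
Share (%) of the tested genes of each list that were lower (blue, to the left) or higher (red, to the right) in normoxia at an adjusted p-value under 0.05, with the number tested in brackets. Dotted lines mark the shares over all tested genes, 16.5% lower and 18% higher, and the nuclear partners reach 44.0% on the lower side, the longest bar there.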

How the data were processed

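RNA-seq was made from 4 hypoxia and 4 normoxia samples of sorted bone MSCs. The authors mapped single-end reads to the mouse genome (mm10) with zUMIs, STAR and samtools, counted them with featureCounts on the Ensembl annotation, and deposited whole-number, unnormalized counts per gene. The library kit named does not mark strand, and the treatment of introns and of reads with several positions is not given in the sources used here.

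Symbols and positions came from GENCODE M21 (GRCm38) and matched 53360 of 53465 identifiers. Identifiers without a symbol held 0.00364% of the counts. Genes were kept with filterByExpr (minimum count 5) in edgeR 4.0.16, scaled by TMM factors and expressed as log2 CPM with a prior count of 3, which understates changes of low genes. Limma-trend (limma 3.58.1, R 4.3.3) compared normoxia with hypoxia, with Benjamini-Hochberg adjustment over all 14369 tested genes and a threshold of 0.05. SE is the standard error of the log2 change and folds are taken from it. CPM levels in the text are scaled by the TMM factors with no prior count. Per-length levels are CPM divided by the length in kilobases of the longest transcript.

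The Wnt members, role groups, wider lists and tests were chosen with earlier results of these data known. Full values were given for members that passed without overlap between groups, for the most abundant member per length of each role group and for members whose call changed with the block. In the wider list the 4 largest rises and 4 largest falls that passed were named. Members under a mean of 20 counts were given by counts.

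The study describes a sorted population that was divided between the oxygen levels, but does not tie the sample numbers to it. The deviations of same-numbered samples from the group means correlated across genes at 0.47, 0.28, 0.25 and 0.17 for pairs 1 to 4, each over 0.1. On this basis the numbers were taken to pair the samples. No such values are given for samples of different numbers, so the pairing is an assumption. The replicate block was therefore an alternative. Other alternatives were edgeR's quasi-likelihood test, DESeq2 1.42.0, limma-voom, RLE factors, library totals, no filter, a minimum count of 10, a prior count of 0.5, GC and length correction with the block (a natural spline with 5 degrees of freedom of each, known for 14353 genes) and leaving out each sample. Limma-trend with and without the block, edgeR's quasi-likelihood test, DESeq2 and limma-voom were also run on simulated counts. These counts had the same relative spread for every gene and no differences tied to replicate number. They therefore do not show how the fits handle the spread and pairing of these data. Total counts of 12898291 to 25132141 put 3 counts at 0.125 to 0.241 CPM, a floor that covers counting error only.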

Additional observations from a re-analysis of the deposited data

Results flagged for a closer look

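In 82 sets of 4 values, each a gene's log2 CPM or the library totals of a group, 9 held a sample far from the other 3, where chance would give about 4.1 (1 in 20). The value given is the gap to the nearest sample as a share of the group's whole range. Library totals had the widest gap (0.976), since hypoxia replicate 1 had 25132141 counts and the other hypoxia samples 12929564 to 13219647. The same sample was low for Fzd4 (0.837, at 4.36 log2 CPM against 4.87 to 4.97), Fzd7 (0.845, at 6.82 against 6.98 to 7.01) and Lgr5 (0.833, at 3.76 against 5.08 to 5.34), and high for Notum (0.964, at 1.59 against 1.04 to 1.06). Whether its depth plays a part in these levels was not tested. Normoxia replicate 1 was also the lowest of its group for Lgr5, Fzd4 and Fzd7.

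Hypoxia replicate 2 was high for Fzd5 (0.934, at 7.67 against 7.19 to 7.22) and Lrp6 (0.943, at 9.09 against 8.67 to 8.69). Normoxia replicate 2 was high for Fzd1 (0.882, at 8.08 against 7.71 to 7.75). Hypoxia replicate 4 was low for Lrp5 (0.845, at 6.70 against 6.82 to 6.84).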

How the results depend on the processing

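The 8 higher and 12 lower Wnt members became 10 and 18 with the replicate block, and 12 and 16 with the block and GC correction. Library totals in place of TMM factors moved the median of all tested genes to 0.089 and gave 13 higher and 11 lower members with a member median of 0.091. Leaving out each sample gave 4 to 9 higher and 11 to 14 lower members and a median from -0.11 to 0.032. It gave 27 to 36 other pathway genes higher and 21 to 33 lower (the 21 without hypoxia replicate 3). Over all tested genes, 4970 were called in the main fit, 5186 with library totals and 3838 to 5423 when a sample was left out. The block made calls of Wnt16, Wnt5b, Fzd4, Fzd7, Lrp6, Ror1, Kremen1 and Lgr5, and changed no other call among the 40 members with per-gene values.

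Among the 40 members, signs turned only for 4 genes that passed neither with nor without the block. All calls other than those of Axin1, Dkk3, Sfrp1, Wnt4 and Lrp5 were kept in each of the 19 alternatives. Ctnnb1 was at -0.011 with the block and GC correction, -0.0073 in DESeq2, -0.0076 with RLE factors and from -0.024 to 0.017 when a sample was left out. Ror2 was at 0.15 with the block and GC correction, 0.074 with library totals and from -0.10 to 0.063 when a sample was left out. Lgr4 was at -0.019 with the block and GC correction, and Fzd1 ranged from -0.22 to 0.014 (without hypoxia replicate 2) when a sample was left out. Limma-voom, a minimum count of 10 and a prior count of 0.5 changed no call of the 40 members. Wnt4 and Axin2 had few counts, and the part of depth in their calls was not tested.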
